A study of Mus musculus with 4 samples.

Results

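The cells described here were the 227 barcodes of E10.5 mouse heart preparations that carried transcripts of *Isl1* together with *Tbx1* or *Fgf10* and that lacked strong expression of other lineages, out of 30415 barcodes that passed quality control. They were chosen by measured values, so the levels of the genes in the rule describe the choice and were not tested. A barcode was kept with at least 1 unique molecular identifier (UMI, a captured transcript) of *Isl1* and at least 1 of *Tbx1* and *Fgf10* together. It also needed fewer than 15 UMIs of the cardiomyocyte gene *Tnnt2* per 10,000, fewer than 500 of embryonic globin *Hbb-y*, fewer than 2 of the endothelial genes *Pecam1*, *Cdh5* and *Ecscr* together, fewer than 3 of neuronal *Tubb3*, and none of the epithelial gene *Epcam* or of *Barx1*, a gene of foregut mesenchyme. The working name of the population is second heart field pharyngeal mesoderm.

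The second heart field is a population of progenitors in pharyngeal and splanchnic mesoderm that adds cells to both poles of the heart tube. The LIM homeodomain factor *Isl1* marks these progenitors, the T-box factor *Tbx1* is known for its part in the pharyngeal and outflow tract portion, and the ligand *Fgf10* is expressed there and in the mesenchyme around the lung buds. A posterior portion, known for *Tbx5*, *Osr1* and Hox genes, lies next to the foregut and receives hedgehog signals from its endoderm. In the annotation of build GRCm38, *Isl1* lies at chr13:116298281-116309689 on the minus strand, *Tbx1* at chr16:18580979-18590671 on the minus strand and *Fgf10* at chr13:118669791-118792115 on the plus strand.

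The study profiled dissected cardiogenic tissue, cell by cell with the 10x Genomics droplet assay, to ask what endocardial loss of the receptor Tie2, encoded by *Tek*, changes. Control embryos were Tie2 f/f without Cre, and Tie2-cko embryos were Nfatc1Cre;Tie2 f/f, the Cre being a knock-in that is active in the endocardium, a lineage outside the cells described here. Strain 129 was mixed with C57/BL6, both sexes were used, and 2 hearts of each genotype came from 1 litter. The libraries are named by replicate number, 5 and 7 being controls and 6 and 8 Tie2-cko, and no label pairs a control with a Tie2-cko library. They held 259775540 (library 5), 222270938 (library 6), 169361996 (library 7) and 210062861 UMIs (library 8). Beside the roughly 10000 cells encapsulated per genotype by the labels, the files held 18488, 8877, 11172 and 11899 barcodes in libraries 5, 6, 7 and 8, of which 9019, 4468, 7965 and 8963 passed quality control (1500 genes or more, and mitochondrial UMIs not above 10%). In endothelial barcodes the mean level of *Tek* was 0.751, 0.310, 1.17 and 0.222 UMIs per 10,000 in libraries 5, 6, 7 and 8. Each Tie2-cko library lay below both controls. Whether the 3′ reads that count *Tek* fall in the deleted part was not examined.

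Of the barcodes that passed quality control, 5034 held *Isl1* and 879 of these also held *Tbx1* or *Fgf10*. The absence of *Epcam* removed 241 barcodes that met every other condition, the *Tnnt2* limit 118, the absence of *Barx1* 72, the endothelial limit 47, and the *Hbb-y* and *Tubb3* limits 1 each. The highest *Tnnt2* level among the chosen cells was 13.7 UMIs per 10,000, in library 8, and the lowest among barcodes removed by that limit alone was 15.4, in library 6. The choice rested on few transcripts, since 82 cells (36.1%) held a single *Isl1* UMI, 126 (55.5%) a single UMI of *Tbx1* and *Fgf10* together, and 49 (21.6%) a single UMI of each.

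Free RNA can place such UMIs in cells that do not express a gene, and red blood cells served as the background. *Isl1* together with *Tbx1* or *Fgf10* was found in 10 of 1264 red blood cells of library 5 (0.791%), whose median depth was 35079 UMIs, against 5.09% of the barcodes of that library that passed the 6 exclusions, at a median depth of 15064. The same barcodes of libraries 6, 7 and 8 gave 2.98%, 1.67% and 2.82%. None of the 491, 608 and 192 red blood cells of libraries 6, 7 and 8 held that combination, which allows shares of up to 0.611%, 0.493% and 1.56%. Each library thus exceeded its red blood cell background. Barcodes with at least 10000 UMIs were also thinned to 10000, and shallower ones left out. The combination was then found in no red blood cell of any library. It was found in 3.11%, 1.57%, 1.07% and 1.60% of the remaining barcodes passing the exclusions in libraries 5, 6, 7 and 8. Library 8 held 183 red blood cells after thinning, too few to set its 1.60% apart from background, since 192 cells allowed up to 1.56%. Cardiomyocytes, some of which express *Isl1*, carried the combination in 2.998% of library 6 before thinning, at a median depth of 50129 UMIs, and in 0.398% after it. Presumed doublets among the chosen cells numbered 1, 0, 1 and 3 in libraries 5 to 8, and no barcode was chosen in more than 1 library although pairs of libraries shared 29 to 62 barcodes.

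Library composition was uneven. The population held 107 cells in control library 5, or 1.19% of the quality-controlled barcodes (95% Clopper-Pearson interval 0.973 to 1.43), and 30 cells in control library 7, or 0.377% (0.254 to 0.537). It held 32 cells in Tie2-cko library 6, or 0.716% (0.490 to 1.01), and 58 cells in Tie2-cko library 8, or 0.647% (0.492 to 0.836). The controls were thus the highest and the lowest library, and both Tie2-cko libraries lay between them. The mean was 0.782% ± 0.573 (SD, n = 2) in controls and 0.682% ± 0.0489 in Tie2-cko, a difference of -0.0999 percentage points (exact two-sided permutation test, p = 1), and the smallest p that 2 against 2 libraries allow is 0.33. Without the limits on *Barx1* and *Tubb3*, an alternative added after the data had been seen, library 6 rose to 1.70% against 1.47% in library 5 and the difference was 0.265 percentage points in the opposite direction. Intervals cover counting error only. Library 5 gave 47.1% of all the cells, and without it the difference was 0.305 percentage points in the opposite direction.

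The share of barcodes with *Isl1* was steadier than the share of these with *Tbx1* or *Fgf10*. *Isl1* was found in 15.7%, 16.9%, 14.0% and 17.4% of the barcodes that passed the exclusions in libraries 5, 6, 7 and 8. Of these *Isl1*+ barcodes, 32.5%, 17.6%, 11.9% and 16.2% also held *Tbx1* or *Fgf10*. Library 5 stood above the rest in the second share only. Median totals per chosen cell were 13956, 26425, 11583.5 and 11623 UMIs in libraries 5, 6, 7 and 8. After thinning to 10000 UMIs, which left out shallower barcodes, the share was 0.718%, 0.427%, 0.172% and 0.354% in the same order. These are shares of the quality-controlled barcodes with at least 10000 UMIs.

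*Tbx1* alone was found in 132 cells, *Fgf10* alone in 82, and both in 13. Since 126 of the 227 cells (55.5%, and 76.7% in library 7) held a single UMI of *Tbx1* and *Fgf10* together and so could not show both, these counts do not show that the genes exclude each other. *Tbx1* was present in 63.6% of the cells of control library 5 (95% Clopper-Pearson interval 53.7 to 72.6), 80.0% of library 7 (61.4 to 92.3) and 81.0% of Tie2-cko library 8 (68.6 to 90.1), but in 6 of 32 cells, or 18.8% (7.21 to 36.4), of Tie2-cko library 6. Library 6 stood apart from the other 3, including the other library of its genotype, and its cells held *Fgf10* alone in 26 cases and both genes in none.

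**Figure D1:**
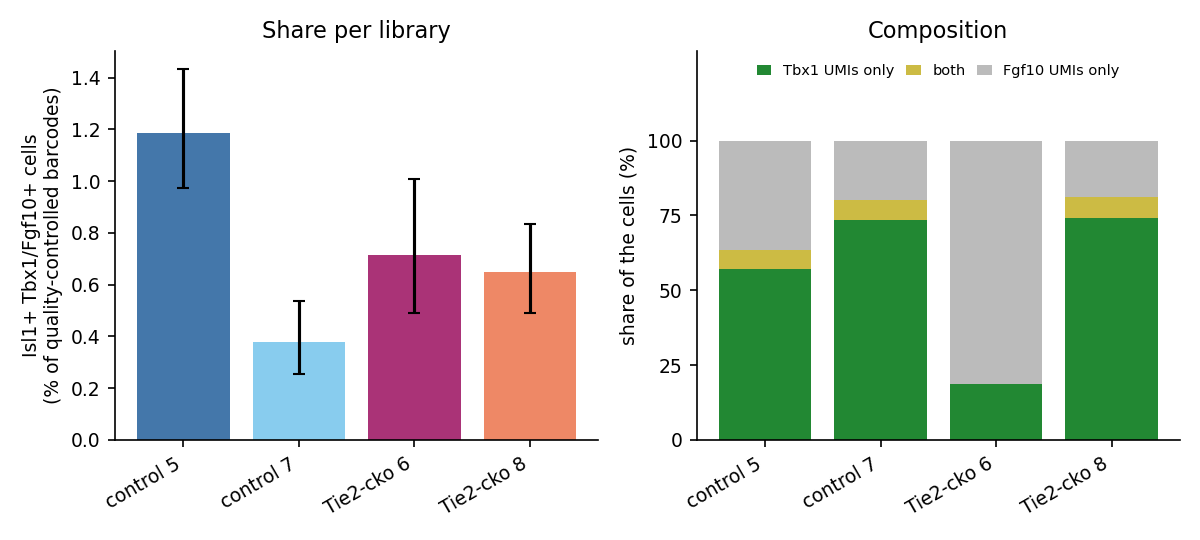
Left, share of quality-controlled barcodes chosen as *Isl1*+ *Tbx1*/*Fgf10*+ in each library, as bars with 95% Clopper-Pearson intervals. Right, percentage of these cells with UMIs of *Tbx1* only, of both genes or of *Fgf10* only. Control library 5 had the highest share (1.19%) and control library 7 the lowest (0.377%), and Tie2-cko library 6 had the lowest share of cells with *Tbx1* (18.8%).

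The tissue captured also differed between libraries. *Barx1* was found in 14.6% and 21.7% of the quality-controlled barcodes of libraries 5 and 6, but in 4.48% and 6.74% of libraries 7 and 8. *Epcam* was found in 11.7%, 17.1%, 4.67% and 7.31% of barcodes of libraries 5, 6, 7 and 8, and *Tnnt2* was at or above its limit in 38.5%, 31.5%, 47.9% and 53.1%. Libraries 5 and 6, of different genotypes, thus held more barcodes with foregut and epithelial genes and fewer with high *Tnnt2*. The part of this difference in the gene levels that follow was not tested.

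The identity given by the working name was compared with marker genes that the rule did not use. *Hand1*, a bHLH factor of cardiac and lateral mesoderm, stood at 2.95, 1.46, 2.61 and 2.34 UMIs per 10,000 in libraries 5, 6, 7 and 8, against 0.249, 0.247, 0.272 and 0.231 in barcodes that passed the same exclusions without *Isl1*. *Hand2*, its paralogue, stood at 1.04, 1.15, 2.35 and 2.17. *Hand1* was above the barcodes without *Isl1* in 4 of 4 libraries.

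Of the other genes of the anterior portion, some were abundant and some were scarce. *Mef2c*, a MADS-box factor, stood at 0.498, 0.655, 1.17 and 1.25 UMIs per 10,000 in libraries 5, 6, 7 and 8, and *Bmp4*, a signalling ligand, at 0.663, 1.38, 1.34 and 0.918. *Fgf8*, a ligand of the anterior second heart field at earlier stages, was listed at 0 in libraries 5, 6 and 8 and at 0.0646 UMIs per 10,000 in library 7. *Eya1*, a transcriptional coactivator of pharyngeal development, reached no more than 0.228. *Nkx2-5*, the homeodomain factor of cardiac progenitors and cardiomyocytes, lay between 0.104 and 0.323, and *Tbx20*, another cardiac T-box factor, between 0.103 and 0.343. The muscle regulators *Myod1* and *Myf6* did not exceed 0.0238 in any library, and *Myog* was at 0. The working name was given by *Isl1*, *Tbx1* and *Fgf10*, which the rule required, and the other markers were divided. *Hand1* did not pass against the *Isl1*+ cells without *Tbx1* and *Fgf10* (log2 fold change 0.10 ± 0.10, edgeR adjusted p = 0.703), and *Fgf8* and *Eya1* were low. Against the same cells the anterior genes *Six2* (2.21) and *Eya1* (1.48) were called higher, at average log2 CPM of only 2.06 and 2.80. The head muscle genes *Lhx2* (2.60) and *Msc* (1.78) were also higher, from low levels, while *Mef2c* and *Hand2* were lower.

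Markers of other lineages were low apart from some abundant transcripts. The 9 neural crest markers summed to 0.119, 0.0709, 0.209 and 0.147 UMIs per 10,000 in libraries 5, 6, 7 and 8, *Foxd3* was at 0 in all 4, and the most abundant was *Tfap2a* at up to 0.0892. The 5 immune and platelet markers summed to at most 0.0426, with *Ptprc* at 0 in every library. The 7 endothelial markers outside the rule summed to between 0.718 and 1.32, of which *Kdr*, a receptor also found in mesodermal progenitors, was the most abundant in libraries 6 and 7, and *Tie1* was at most 0.0107. Epithelial *Cdh1* was at most 0.00876, although the keratin *Krt18* stood between 0.885 and 1.77.

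Cardiomyocyte and globin transcripts stood near their levels in other cells of the same library. The 10 cardiomyocyte genes summed to 24.0, 10.4, 48.2 and 41.3 UMIs per 10,000 in libraries 5, 6, 7 and 8, against 29.5, 19.7, 42.5 and 45.4 in barcodes without *Isl1* that passed the exclusions. Their most abundant member was the atrial light chain *Myl7*, at 6.49, 2.86, 14.5 and 11.5. The 6 globin and erythroid genes outside the rule summed to 41.5, 6.59, 15.6 and 7.24, against 39.9, 10.4, 16.8 and 7.01 in the barcodes without *Isl1*. The exception was library 6, where the chosen cells held less of both groups. The part of free RNA in these sums was not tested.

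Genes of the posterior portion differed widely between libraries. *Tbx5*, the T-box factor of the posterior second heart field and atria, stood at 0.540, 1.38, 0.0971 and 0.0244 UMIs per 10,000 in libraries 5, 6, 7 and 8. *Wnt2*, a ligand of lung and foregut mesenchyme and the venous pole, stood at 0.425, 1.37, 0 and 0. *Hoxa5* stood at 0.533, 1.61, 0 and 0.0112. Library 6 was the highest for each of these genes, library 5 came next, and libraries 7 and 8 were near 0, so that the genotypes overlapped.

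*Osr1*, a zinc finger factor of the posterior second heart field, stood at 0.488, 1.23, 0 and 0.0786 UMIs per 10,000 in libraries 5, 6, 7 and 8. *Nr2f2*, an orphan nuclear receptor of atrial and venous identity, stood at 0.843, 2.50, 0.121 and 0.402. *Foxf1*, a forkhead factor of splanchnic mesoderm, stood at 1.01, 2.03, 0.602 and 0.844. For all 3 genes library 6 was again the highest, followed by libraries 5, 8 and 7. The 11 posterior genes together summed to 4.82, 9.69, 1.74 and 2.52, and the 12 anterior genes to 3.21, 3.67, 5.97 and 5.94, with libraries 7 and 8 the higher ones. Fewer posterior cells and less of these transcripts per cell cannot be told apart from such means.

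**Figure D2:**
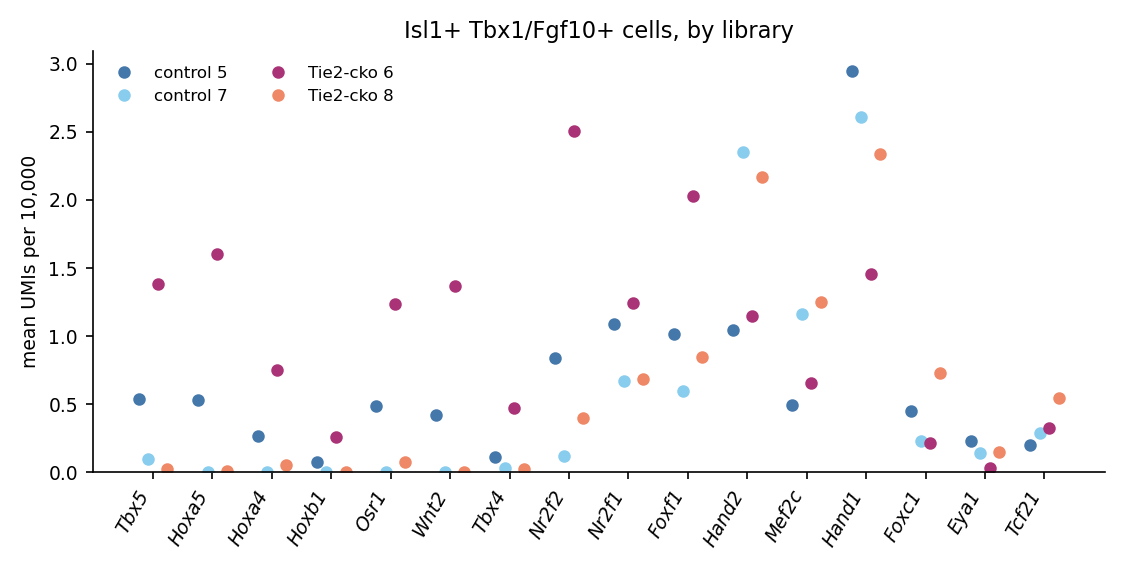
Mean UMIs per 10,000 in the *Isl1*+ *Tbx1*/*Fgf10*+ cells, with a point for each library, for genes of the posterior portion and foregut mesenchyme from *Tbx5* to *Foxf1* on the left and for *Hand2*, *Mef2c*, *Hand1*, *Foxc1*, *Eya1* and *Tcf21* on the right. *Tbx5*, *Hoxa5*, *Osr1* and *Wnt2* were highest in Tie2-cko library 6 and near 0 in control library 7 and Tie2-cko library 8, whereas *Hand2* and *Mef2c* were highest in the last pair.

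The first comparison asked what set these cells apart from the 894 other *Isl1*+ barcodes that passed the exclusions but held neither *Tbx1* nor *Fgf10*, called *Isl1*-only cells. Counts were summed per library and set and compared with edgeR's quasi-likelihood test with the library as a term, leaving out the genes of the rule. Of 10630 genes tested, 657 (6.18%) passed an adjusted p of 0.05, 235 (2.21%) being higher and 422 (3.97%) lower in the *Tbx1*/*Fgf10*+ cells. The median log2 fold change of all genes was 0.0027. DESeq2 called 265 genes, all among the 657. Median depth was lower in the *Isl1*-only cells of each library, at 13141, 21878.5, 10599 and 11611.5 UMIs in libraries 5, 6, 7 and 8. Thinning to 10000 UMIs, with shallower cells left out, gave 154 calls, of which 133 were among the 657. It also reduced the *Tbx1*/*Fgf10*+ cells from 227 to 112, so depth and cell number changed together.

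*Foxf1* and *Tshz2* were higher in the *Tbx1*/*Fgf10*+ cells. *Foxf1*, a factor of splanchnic mesoderm given above for these cells, stood at 0.457, 1.01, 0.270 and 0.268 UMIs per 10,000 in the *Isl1*-only cells of libraries 5, 6, 7 and 8. Each library held more in the first set, by 1.35 ± 0.12 on the log2 scale (SE, edgeR adjusted p = 3.37e-07). *Tshz2*, a zinc finger factor, stood at 1.60, 1.70, 1.40 and 2.48 against 0.790, 0.712, 0.531 and 0.675, a log2 fold change of 1.41 ± 0.13 (edgeR adjusted p = 3.01e-07). Of the 12 higher genes named by rule, *Tshz2* was the only one that passed under each of 10 alternatives.

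*Ptch1*, the hedgehog receptor that hedgehog signalling itself induces, stood at 1.53, 1.38, 1.06 and 1.09 UMIs per 10,000 in libraries 5, 6, 7 and 8 against 0.697, 0.855, 0.508 and 0.616 in the *Isl1*-only cells. It was higher in 4 of 4 libraries, with a log2 fold change of 1.00 ± 0.12 (edgeR adjusted p = 1.71e-05), but did not pass after thinning (0.53, edgeR adjusted p = 0.123). *Hhip*, a hedgehog-binding protein and another induced target, was also higher, at a log2 fold change of 1.05 ± 0.22 (edgeR adjusted p = 0.00475), and passed in 6 of 10 alternatives. Of the 11 hedgehog pathway genes listed, 9 were tested, these 2 were called higher and none was called lower. Of the 9 log2 fold changes 7 were positive and 2 negative, with a median of 0.16. The effector *Gli1* did not pass, with 0.184, 0.133, 0.164 and 0.0862 against 0.0954, 0.0983, 0.0477 and 0.0765 (0.94 ± 0.28, edgeR adjusted p = 0.0515). The ligand *Shh* was at most 0.0114 in these cells.

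Hox genes, which mark position along the body axis, were higher or not called. Of 15 listed, 12 were tested, all 12 had positive log2 fold changes and 8 passed the threshold, with a median of 1.05. *Hoxa2*, *Hoxb2*, *Hoxb3* and *Hoxb4* passed in 9 of 10 alternatives each, and *Hoxa3*, *Hoxa4*, *Hoxa5* and *Hoxb5* in 5. *Hoxb4* stood at 0.727, 1.86, 0.373 and 0.413 UMIs per 10,000 against 0.460, 1.08, 0.191 and 0.241 in *Isl1*-only cells of libraries 5, 6, 7 and 8, higher in each (log2 fold change 0.95 ± 0.12, edgeR adjusted p = 1.99e-05). *Hoxb2* and *Hoxa2*, which are expressed further towards the head, had log2 fold changes of 0.85 and 1.37. The value of 1.04 for *Hoxa5* rested on libraries 5 and 6, since libraries 7 and 8 held next to none, and DESeq2 gave -0.026.

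Of 11 genes of the posterior portion tested, 5 were higher (*Tbx5*, *Hoxa3*, *Nr2f1*, *Nr2f2* and *Foxf1*), 1 was lower (*Gata4*), and the median log2 fold change was 0.75. *Nr2f1*, an orphan nuclear receptor, stood at 1.09, 1.25, 0.671 and 0.684 UMIs per 10,000 against 0.608, 0.612, 0.542 and 0.266, a log2 fold change of 1.00 ± 0.12, higher in 4 of 4 libraries. *Tbx5* had a log2 fold change of 0.75 ± 0.19 (edgeR adjusted p = 0.0173) but was not above the *Isl1*-only cells in library 8, where it stood at 0.0244 against 0.0701. It passed in 5 of 10 alternatives, and not without library 5 or without library 6, with adjusted p of 0.331 and 0.113 from edgeR. Of the 7 lung and foregut mesenchyme genes tested, 4 were higher (*Foxf1*, *Hhip*, *Ptch1* and *Tbx4*) and none lower.

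The anterior list was divided. Of its 10 genes tested, *Six2* and *Eya1* were higher, with log2 fold changes of 2.21 ± 0.53 and 1.48 ± 0.39, and *Mef2c* and *Hand2* lower, at -0.49 and -0.39. *Six2* passed in 5 of 8 alternatives, *Eya1* in 4 of 10, and *Mef2c* and *Hand2* in 5 of 10 each. The median of the 10 was 0.11, and *Six2* and *Eya1* had low average log2 CPM, at 2.06 and 2.80. Of 4 head muscle genes tested, *Lhx2* (2.60 ± 0.43) and *Msc* (1.78 ± 0.48) were higher. These genes were low in both sets, *Lhx2* standing at 0.331, 0.468, 0 and 0.102 UMIs per 10,000 in the *Tbx1*/*Fgf10*+ cells of libraries 5, 6, 7 and 8.

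*Crabp2*, a retinoic acid binding protein, was higher in 4 of 4 libraries, at 1.56, 1.05, 1.86 and 1.63 UMIs per 10,000 against 0.760, 0.880, 0.801 and 0.871 (log2 fold change 0.91 ± 0.13, edgeR adjusted p = 6.98e-05). Of 8 retinoic acid genes tested it was the only one called higher, and the receptor *Rarg* was lower. Of 11 genes of the FGF pathway tested, only the ligand *Fgf9* was called, higher by 1.61 ± 0.41. The remaining higher genes named by rule were *Hsd11b2*, *Pdgfc*, a ligand of PDGF receptors, the cartilage collagen *Col2a1*, *Sulf1* and *Plpp3*, with log2 fold changes between 0.82 and 1.03. *Cxcl13*, a chemokine, was chosen after its values were seen. It stood at 2.52 and 5.64 in libraries 5 and 6 against 0.684 and 1.44 in the *Isl1*-only cells, and at 0 in libraries 7 and 8.

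*Tbx20* and *Hapln1* were lower. *Tbx20* stood at 0.111, 0.103, 0.343 and 0.259 UMIs per 10,000 in the *Tbx1*/*Fgf10*+ cells of libraries 5, 6, 7 and 8 against 0.874, 1.07, 1.54 and 1.63 in *Isl1*-only cells. Its log2 fold change was -2.85 ± 0.17 (edgeR adjusted p = 4.07e-10), and the highest library of the first set lay below the lowest of the second. *Hapln1*, a link protein of the hyaluronan matrix, stood at 0.0833, 0.0616, 0.303 and 0.261 against 1.71, 1.94, 2.78 and 2.13, a log2 fold change of -3.85 ± 0.20 (edgeR adjusted p = 4.11e-11).

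*Postn*, a matrix protein of cushion mesenchyme, stood at 0.107, 0.114, 0.153 and 0.134 UMIs per 10,000 against 0.445, 0.473, 1.05 and 0.888 (log2 fold change -2.68 ± 0.20). *Igfbp7*, a secreted binding protein, stood at 0.0734, 0, 0.0247 and 0.0803 against 0.568, 0.901, 1.09 and 0.999 (-4.10 ± 0.29). All 12 lower genes named by rule were below the *Isl1*-only cells in 4 of 4 libraries, and 11 of them passed under each of 10 alternatives, the exception being *Vamp5*. The others were the muscle LIM protein *Pdlim3* (-2.97), *Ramp2* (-2.34), *Rtn1* (-2.26), *Tagln2* (-2.17), *Gask1b*, *Mical2* (-1.91) and the lipoprotein gene *Apoe* (-1.89). Of 9 genes of cushion and arch mesenchyme, 4 were called lower (*Postn*, *Fbln2*, *Twist1* and *Sox9*), none was called higher, and the median was -0.19.

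**Figure D3:**
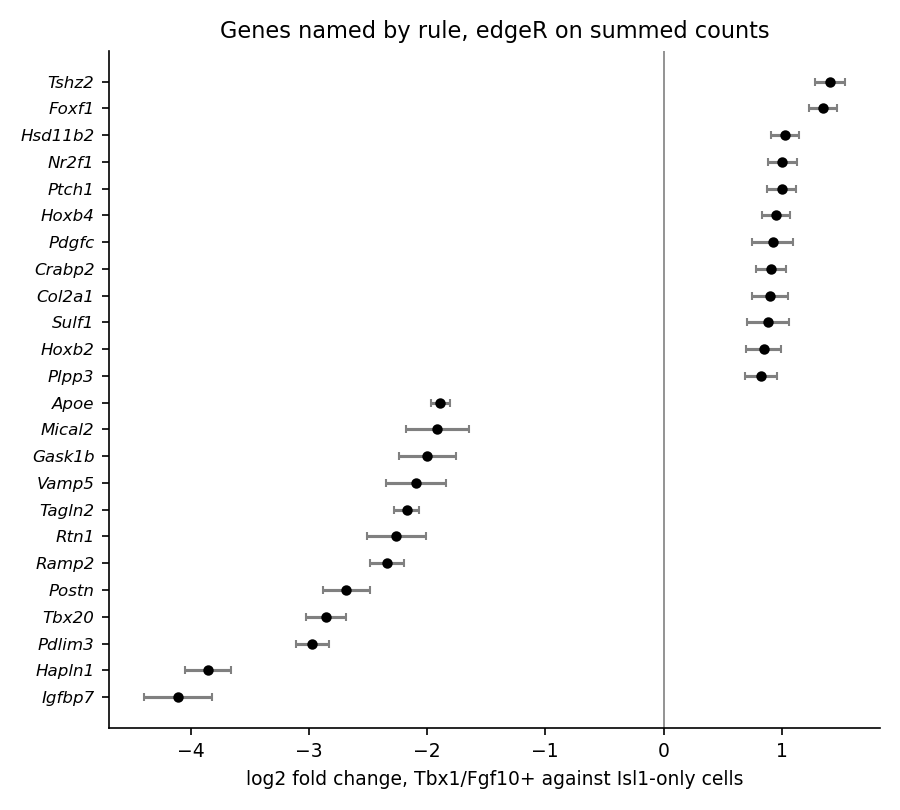
Log2 fold changes of the 24 genes named by rule between *Isl1*+ *Tbx1*/*Fgf10*+ and *Isl1*-only cells, as points with standard errors from edgeR on counts summed per library. Higher genes lay between 0.82 (*Plpp3*) and 1.41 (*Tshz2*), and lower genes between -1.89 (*Apoe*) and -4.10 (*Igfbp7*).

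Cardiac transcription factors were divided, with more lower than higher. Of 14 tested, 5 were lower (*Gata4*, *Gata6*, *Mef2c*, *Hand2* and *Tbx20*) and 3 higher (*Tbx2*, *Tbx3* and *Tbx5*), with a median log2 fold change of -0.16. *Gata6*, a zinc finger factor, stood at 0.884, 1.07, 1.58 and 1.25 UMIs per 10,000 against 1.68, 1.93, 2.57 and 2.88, lower in 4 of 4 libraries (log2 fold change -0.86 ± 0.09). *Hand1* did not pass, with 2.11, 1.29, 2.75 and 2.86 in the *Isl1*-only cells of libraries 5, 6, 7 and 8. Of 10 cardiomyocyte genes, *Tnni1* (-0.68) and *Ttn* (-0.44) were lower, and the median was -0.16.

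Genes of BMP signalling were among the lower ones. Of 15 tested, 6 were called lower and none was called higher, with a median of -0.24. They were the ligand *Bmp2*, the inhibitory *Smad6* and *Smad7*, and the induced genes *Msx1*, *Id2* and *Id3*. *Msx1* stood at 0.0900, 0.321, 0.176 and 0.183 UMIs per 10,000 against 0.442, 0.528, 0.552 and 0.379, lower in 4 of 4 libraries (log2 fold change -1.40 ± 0.19, edgeR adjusted p = 6.56e-05). *Id2* and *Id3* changed less, at -0.33 and -0.30, and the ligand *Bmp4* did not pass. Of 12 canonical Wnt genes, *Sp5* and *Sfrp2* were higher and *Dkk1* lower.

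Of 18 genes of G2 and mitosis, all had positive log2 fold changes and 6 passed (*Top2a*, *Aurkb*, *Cenpf*, *Cenpe*, *Nusap1* and *Ube2c*), with a median of 0.25. *Top2a*, the topoisomerase of dividing cells, stood at 4.23, 5.37, 4.47 and 4.95 UMIs per 10,000 against 3.31, 4.07, 4.04 and 3.47, higher in 4 of 4 libraries (log2 fold change 0.28 ± 0.06). Of 15 S phase genes, 3 passed (*Mcm7*, *Tyms* and *Rrm2*), all higher, with a median of 0.10. *Aurkb* and *Tyms* passed in 2 of 10 alternatives each and *Mcm7* in 3. *Nusap1* and *Rrm2* passed in 5, *Cenpe* in 6, *Top2a* and *Ube2c* in 7 and *Cenpf* in 8. The *Tbx1*/*Fgf10*+ cells were also the deeper set in each library, as given above.

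Of 29 markers of other lineages tested, 3 were higher and 4 lower in this comparison, beside 6.18% of all genes called in either direction. Of 2 neural crest genes tested *Erbb3* was lower, with 0.00933 UMIs per 10,000 in library 7 and 0 in libraries 5, 6 and 8. Of 3 hepatic genes *Afp* was lower, at -2.40. Of 6 endothelial genes *Egfl7* was lower and *Cldn5*, at 0.224 or less in each library, higher. Of 5 neuronal genes *Dcx* was higher, and of 3 epithelial and 4 globin genes none passed. The immune gene *Fcer1g* was lower but turned direction with DESeq2, and of 5 epicardial genes only *Wt1* was higher, which turned direction after thinning. None of the 4 sex-linked genes tested passed. *Xist* was not tested, and its level differed between the sets in library 5, as given under Other observations.

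**Figure D4:**
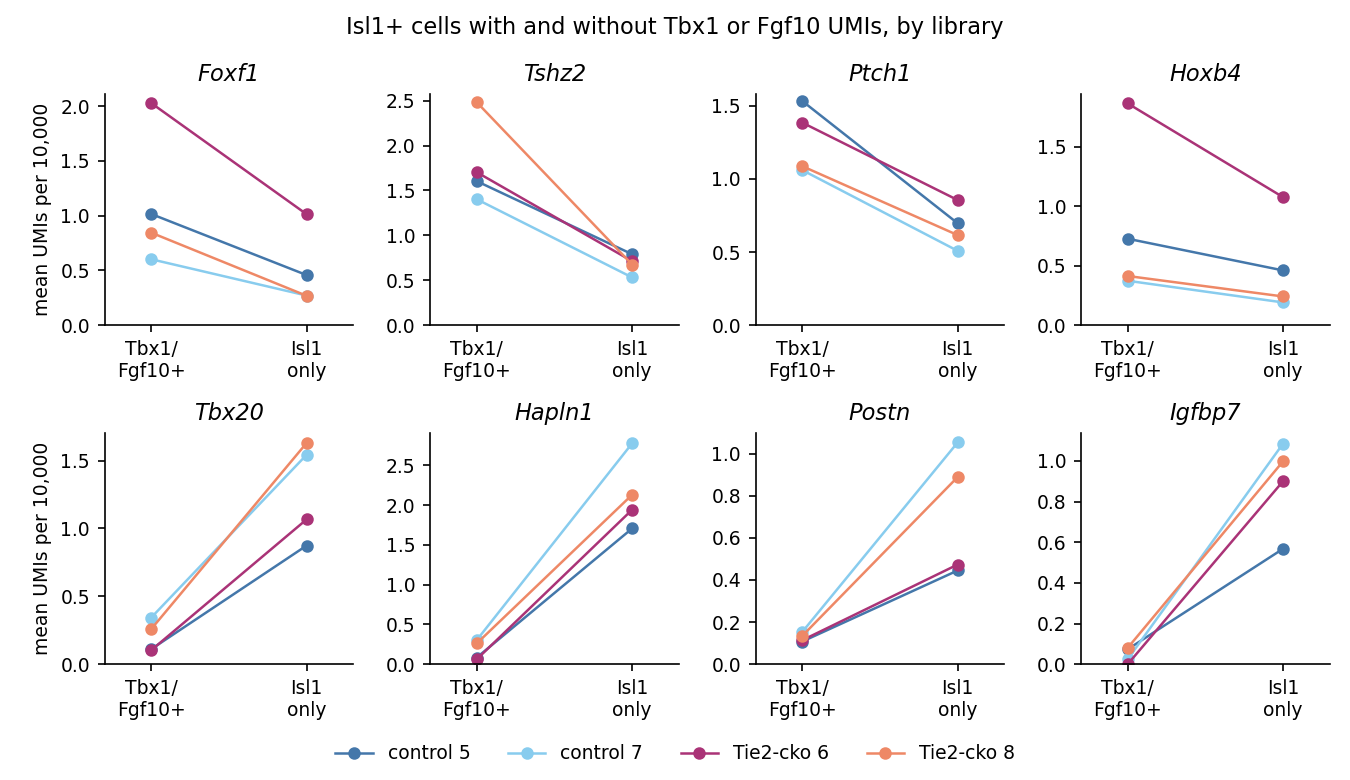
Mean UMIs per 10,000 in the *Isl1*+ *Tbx1*/*Fgf10*+ cells and in *Isl1*-only cells, joined for each library. *Foxf1*, *Tshz2*, *Ptch1* and *Hoxb4* were higher in the first set in 4 of 4 libraries, and *Tbx20*, *Hapln1*, *Postn* and *Igfbp7* lower in 4 of 4.

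The second comparison asked how cells with *Tbx1* alone differed from cells with *Fgf10* alone. Only libraries 5 (61 and 39 cells) and 8 (43 and 11 cells) held at least 10 cells of each kind, and the test was edgeR's with the library as a term. With so few libraries its p-values rest largely on variability that edgeR pools over genes, not on agreement between libraries. Cells with *Fgf10* were the deeper kind, with median totals of 14844 UMIs against 13293 in library 5 and 15053 against 11102 in library 8, and the part of depth in the result was not tested. Of 6455 genes tested, 71 (1.1%) passed an adjusted p of 0.05, 45 (0.697%) being higher and 26 (0.403%) lower in cells with *Tbx1*. DESeq2 called 0 genes here (61 at an unadjusted p under 0.05). With all 4 libraries, an alternative added after the data had been seen, edgeR called 36 genes, of which 24 were among the 71, and DESeq2 called 13, of which 8 were.

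*Hand1* and *Foxc1* were higher in cells with *Tbx1*, and each passed in 3 of 6 alternatives. *Hand1* stood at 4.45 and 2.65 UMIs per 10,000 in cells with *Tbx1* of libraries 5 and 8, against 0.868 and 1.91 in cells with *Fgf10*, a log2 fold change of 2.20 ± 0.30 (edgeR adjusted p = 2.25e-07). In the smaller libraries the values were 6.88 against 0.207 in library 6 and 2.45 against 3.67 in library 7, the opposite order, where 6 cells held *Fgf10* alone. *Foxc1*, a forkhead factor of pharyngeal and other mesoderm, was higher in 4 of 4 libraries, with 0.685, 0.655, 0.260 and 0.804 against 0.112, 0.115, 0.0794 and 0.508 (log2 fold change 1.85 ± 0.44, edgeR adjusted p = 0.00943). Of the 10 cardiac transcription factors tested, *Hand1* and *Hand2* were higher and none lower, while 7 had negative log2 fold changes and the median was -0.63. *Hand2* passed in 1 of 6 alternatives and rested on library 5. Its ratio of CPM in *Tbx1* cells to *Fgf10* cells was 4.60 there and 1.003 in library 8. In library 7 it stood at 2.30 with *Tbx1* against 2.52 with *Fgf10*.

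Of the 8 genes of cushion and arch mesenchyme tested, 4 were called higher with *Tbx1* (*Sox9*, *Col1a1*, *Col3a1* and *Twist1*) and none was called lower. Their median log2 fold change, over all 8, was 0.75 against 0.011 over all genes. *Col3a1* and *Twist1* passed in none of 6 alternatives. *Sox9*, a chondrogenic and mesenchymal factor, had a log2 fold change of 1.68 ± 0.33 but was lower with *Tbx1* in library 7, at 0.669 against 0.857. *Col1a1*, *Col3a1* and *Twist1* were also lower with *Tbx1* in library 7. *Col3a1* rested on library 5, since in library 8 it stood at 1.99 with *Tbx1* against 2.16 with *Fgf10*. *Limch1* was higher in 4 of 4 libraries and was called under 4 of 6 alternatives, with 1.64, 1.96, 1.10 and 0.926 UMIs per 10,000 in libraries 5, 6, 7 and 8 against 0.341, 0.178, 0.0846 and 0.279. Other higher genes named by rule included *Pcp4*, *Lmo1*, *Pla2g4a*, *Tlx1*, *Dusp9*, *Tgfbi*, *Tgfb1i1*, *Emb* and *Nid1*, the largest log2 fold change being 3.85 ± 0.62 for *Pcp4*. Of these, *Pcp4*, *Pla2g4a* and *Tlx1* were not higher with *Tbx1* in library 6, nor were *Lmo1*, *Pla2g4a* and *Nid1* in library 7, both outside the test. The keratin *Krt8* was also called higher, but its direction turned when all 4 libraries were used.

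Cells with *Fgf10* held more *Nr2f2*. It stood at 1.79 and 0.981 UMIs per 10,000 in cells with *Fgf10* of libraries 5 and 8 against 0.229 and 0.245 in cells with *Tbx1* (log2 fold change -2.83 ± 0.34, edgeR adjusted p = 1.15e-08). In libraries 6 and 7 the values were 2.65 and 0.315 against 1.89 and 0.0464, so it was higher with *Fgf10* in 4 of 4 libraries, but the call was kept in 2 of 6 alternatives. *Efnb2*, an ephrin ligand, followed with 1.25, 1.37, 0.864 and 1.63 in cells with *Fgf10* of libraries 5, 6, 7 and 8 against 0.382, 0.467, 0.589 and 0.479 (-1.59 ± 0.30). The growth factor *Igf1* had a log2 fold change of -1.72 and passed in 2 of 6 alternatives, and in library 6, outside the test, it was higher with *Tbx1*, at 0.819 against 0.305. *Kdr*, the VEGF receptor, had a log2 fold change of -1.97 and *Hoxb4* of -1.80. *Kdr* stood at 0.750, 0.876, 1.55 and 0.233 UMIs per 10,000 with *Fgf10* in libraries 5, 6, 7 and 8 against 0.0753, 0.202, 0.181 and 0.173 with *Tbx1*, lower with *Tbx1* in each. In summed counts, which the test used, library 8 ran the other way, the ratio of CPM in *Tbx1* cells to *Fgf10* cells being 0.114 in library 5 and 1.49 in library 8, and *Kdr* passed in 2 of 6 alternatives.

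*Hoxb4* rested on library 5, where it stood at 1.55 UMIs per 10,000 with *Fgf10* and 0.222 with *Tbx1*. In library 8 the values were 0.364 and 0.428, the opposite order. The other lower genes named by rule were *Gucy1a1* (-2.95), *Cdk6* (-2.23), *Ltbp1* (-1.79), *Phlda1* (-1.71), *Sparcl1* (-1.66), *Nrp2* (-1.50), *Lcorl* (-1.48), *mt-Nd6* (-1.46) and *Add3* (-1.41). Of these, *Gucy1a1*, *Cdk6*, *Ltbp1* and *Nrp2* were higher with *Tbx1* in library 6, and *Phlda1* and *Lcorl* in library 7.

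Of 6 genes of the posterior portion tested in this comparison, *Nr2f2* was the only one called, and the median log2 fold change was -0.41, with *Hoxa3* at 1.19. *Tbx5* and *Wnt2* were too low to be tested and are given as levels. *Tbx5* stood at 1.43 and 1.57 UMIs per 10,000 in cells with *Fgf10* of libraries 5 and 6 and at 0.0359 and 0.555 in cells with *Tbx1*. In libraries 7 and 8 it stood at 0.485 and 0.0591 with *Fgf10* and at 0 and 0.0178 with *Tbx1*. *Wnt2* stood at 1.03 and 1.66 with *Fgf10* in libraries 5 and 6 against 0.0873 and 0.137 with *Tbx1*, and at 0 in both kinds of cell of libraries 7 and 8. Both genes were thus higher with *Fgf10* in libraries 5 and 6, and the cells with *Fgf10* in libraries 7 and 8 were 6 and 11 in number.

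**Figure D5:**
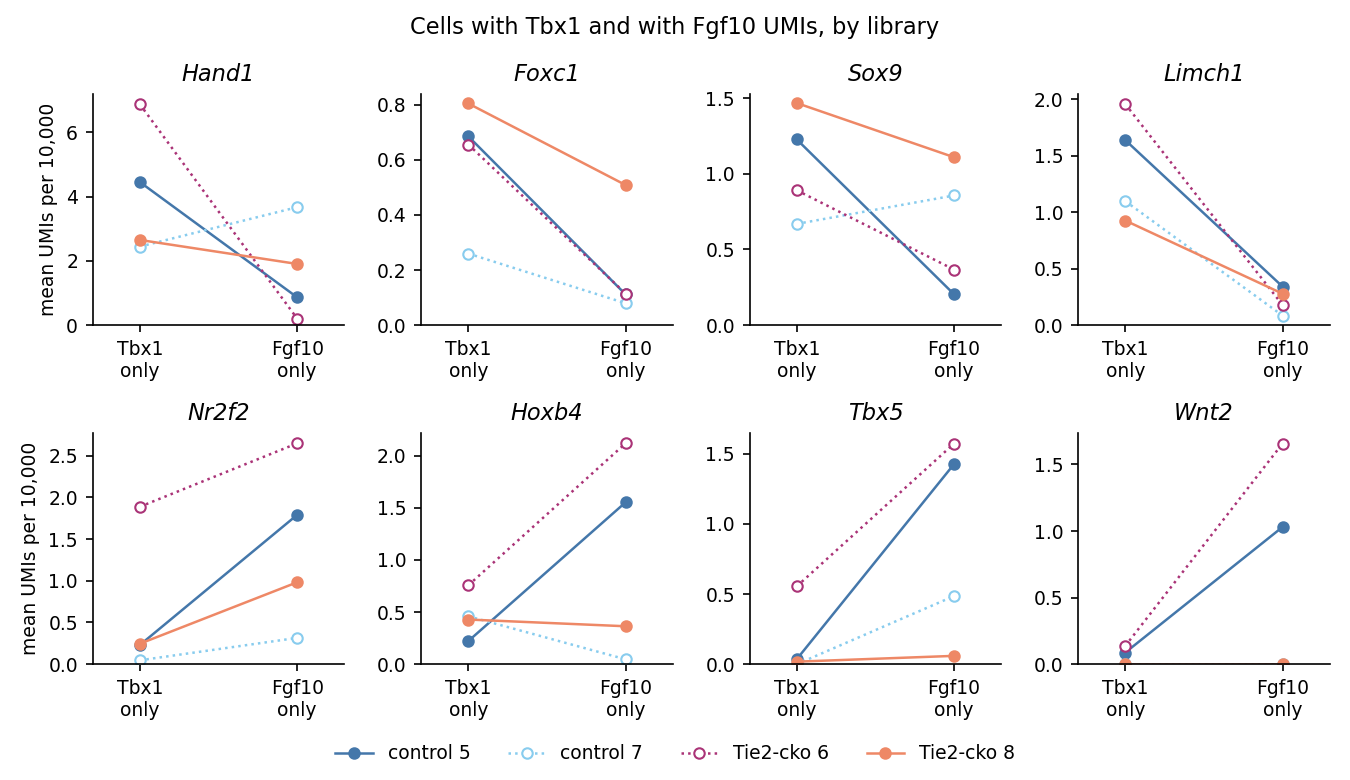
Mean UMIs per 10,000 in cells with UMIs of *Tbx1* only and of *Fgf10* only, joined for each library. Open symbols and dotted lines mark libraries 6 and 7, with fewer than 10 cells of a kind, which the test left out. *Limch1* and *Foxc1* were higher with *Tbx1* and *Nr2f2* higher with *Fgf10* in 4 of 4 libraries, and *Wnt2* was at 0 in libraries 7 and 8.

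The third comparison was between genotypes within the *Isl1*+ *Tbx1*/*Fgf10*+ cells. With 2 libraries in each group, edgeR called 0 of 7640 genes (0%), while 106 had an unadjusted p under 0.05 and DESeq2 called 1 gene, the globin *Hbb-bh1*. *Tek* was too low to be tested, at 0.0340, 0.00920, 0.0740 and 0.0170 UMIs per 10,000 in libraries 5, 6, 7 and 8. Among all tested genes 25.9% had both Tie2-cko libraries on the same side of both controls. *Tbx5*, *Wnt2* and *Hoxa5* were not among these, since control library 5 lay above Tie2-cko library 8 and below Tie2-cko library 6 for each. The absence of calls at this number of libraries does not show that the genotypes are alike. With a block for libraries 5 and 6 against 7 and 8, which no label pairs, edgeR called 6 genes, all lower in Tie2-cko, 4 of them globins. Leaving out 1 library gave 26 (without library 6) to 83 calls (without library 8).

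Among listed genes the 4 with the smallest unadjusted p were globins. *Hba-x* stood at 20.7, 2.78, 7.07 and 3.19 UMIs per 10,000 in libraries 5, 6, 7 and 8, each control above both Tie2-cko libraries (log2 fold change -2.27 ± 0.44, edgeR adjusted p = 1.00, or -2.11 and 0.011 with that block). The same libraries gave 19.8, 3.89, 10.0 and 3.36 in the *Isl1*-only cells, where each control again lay above both Tie2-cko libraries. *Gas1*, a hedgehog co-receptor, came next, with 0.593, 0.791, 0.440 and 0.944 (0.87 ± 0.25, edgeR adjusted p = 1.00). Of 8 Hox genes tested all 8 had positive log2 fold changes, median 0.64, and the Hox list summed to 3.34, 7.70, 1.35 and 1.90 in libraries 5, 6, 7 and 8, so that library 6 held the high value and library 8 lay between the controls. *Hand1* had a log2 fold change of -0.64 ± 0.29 and did not pass.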

How the data were processed

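UMI counts per gene and barcode were made by the authors with Cell Ranger (6.1.2 by the file headers; the methods name another version) on mm10, per the labels, and were deposited without normalization. No correction for free RNA is stated. Barcodes with at least 1500 genes and at most 10% mitochondrial UMIs were kept in the 4 libraries. The members and gene lists were chosen with earlier results of these data known. Levels average the UMIs per 10,000 of single cells. For tests, counts were summed per library and set, and edgeR 4.0.16 (TMM, filterByExpr, quasi-likelihood) was run on all genes except the 11 of the rule, with Benjamini-Hochberg adjustment at 0.05 and libraries holding at least 10 cells of each set. DESeq2 1.42.0, other scaling, no filter, thinning to 10000 UMIs, removal of presumed doublets and leaving out each library were alternatives. Thinning left out barcodes with fewer than 10000 UMIs. Doublets were scored with Scrublet in scanpy 1.11.5 (0.8% per 1000 barcodes) and kept in the main analysis. Standard errors are the absolute log2 fold change over the square root of F. The fits were tested on simulated data, where the fold changes put in were recovered but few changed genes passed between genotypes and none between cells with *Tbx1* and *Fgf10*. Genes named were those of the rule and lists, *Tek*, and up to 12 in each direction per comparison with the largest fold changes past the threshold, average log2 CPM of at least 5 and the same sign in every library tested, unnamed gene models excluded; some genes that met the rule are not reported here. Positions are from GENCODE M21 (GRCm38), matched by identifier for 32235 of 32285 genes. Exact tests permuted the 4 libraries. P-values measure the spread between these libraries, and that each holds a single heart is not stated. R 4.3.3 and Python 3.11.15 with scipy 1.17.1, pandas 2.3.3 and numpy 2.4.6 were used.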

Additional observations from a re-analysis of the deposited data

Results flagged for a closer look

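For 7 of 182 listed genes (3.85%) the difference between *Isl1*+ *Tbx1*/*Fgf10*+ and *Isl1*-only cells ran one way in both control libraries and the other way in both Tie2-cko libraries. The share over all tested genes was not computed, and differences of random sign would also give this pattern for some genes. The difference between genotypes was not tested for these 7 genes, and none of the 7 passed the comparison of the sets over all 4 libraries. Their log2 fold changes over the 4 libraries were -0.76 for *Elavl4*, 0.22 for *Mcm2*, 0.0019 for *Cdc6*, -0.023 for *Actn2*, 0.092 for *Gas1*, 0.10 for *Uhrf1* and 0.64 for *Sfrp5*.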

How the results depend on the processing

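The share of *Isl1*+ *Tbx1*/*Fgf10*+ cells was lower in Tie2-cko with other quality limits, without presumed doublets, with at least 2 *Isl1* UMIs and after thinning, but it was higher by 0.265 percentage points without the *Barx1* and *Tubb3* limits, an alternative added after the data were seen. Leaving out 1 library gave -0.505 to 0.305. Against *Isl1*-only cells, 657 calls became 265 with DESeq2, 154 after thinning and 138 without the library term, and 431 to 542 when 1 library was left out, the lowest without control library 5. Between cells with *Tbx1* and with *Fgf10*, 71 calls became 0 with DESeq2, 0 without the library term (298 at an unadjusted p under 0.05), and 36 (edgeR) or 13 (DESeq2) with all 4 libraries. Doublet removal, thinning and leaving out a library gave no value there, since fewer than 2 libraries kept enough cells. Between genotypes, 0 calls became 1 with DESeq2, 25 without a filter, 6 with a block for libraries 5 and 6 against 7 and 8, of which 4 were globin genes, and 26 to 83 when 1 library was left out, where the lone library of a genotype was assumed to vary like the other. The methods describe somite-matched control and mutant libraries sharing a lane. No label says which of them belong together, so no pairing was used. That block rests on libraries that stood apart in earlier results, not on a stated pairing. Directions turned for *Hoxa5* (-0.026) and *Fcer1g* (0.11) with DESeq2, for *Wt1* (-0.38) and *Hoxa4* (-0.0093) after thinning, and for *Krt8* with all libraries (-0.18 with edgeR, -0.48 with DESeq2). The cause was not tested. Of 734 alternative values for the 76 genes called against *Isl1*-only cells, 546 passed, 184 kept the direction without passing and 4 turned; of 196 for the 33 genes called between cells with *Tbx1* and *Fgf10*, 68, 126 and 2. Depth limits the rare genes, many cells resting on 1 UMI.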

Other observations

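*Xist*, the long RNA of the inactive X chromosome, stood at 0.300 UMIs per 10,000 in the barcodes of control library 5 without *Isl1* that passed the exclusions, at 0.196 in its *Isl1*-only cells and at 0.0132 in its *Isl1*+ *Tbx1*/*Fgf10*+ cells. The Y-linked gene *Ddx3y* was present in the same sets at 0.205, 0.263 and 0.265. In libraries 6, 7 and 8 *Xist* did not exceed 0.00153 in these sets. Whether library 5 holds cells of several embryos is not stated. Its sets may differ in embryo make-up, and the part of this in their comparison was not tested.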
